A study of Mus musculus with 6 samples.

Results

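The genes described here encode the machinery that copies DNA in S phase, and they were read in mouse presomitic mesoderm with and without Cre-driven deletion of Taf10. They are a list of 37 genes chosen by name, and a probe set (the group of array probes that reads a gene) counted only where its one platform symbol was a listed gene. All 37 were measured, by 40 of the 16311 probe sets with 1 gene symbol, among 15153 genes in all. Mutant pools carried TCre/+;Taf10flox/flox, in which Cre is expressed from the promoter of T (Brachyury), in the primitive streak and the mesoderm that leaves it. Control pools are labelled WT and held Taf10Flox/+ or Taf10flox/flox embryos, so floxed Taf10 alleles were present in both genotypes, and which control pool held which alleles is unknown here. The presomitic mesoderm, the unsegmented tissue from which somites form, was microdissected at embryonic day 9.5 from embryos of 17 to 19 somites. Each of the 6 arrays (3 mutant, 3 control) read the RNA of 3 pooled tissues. Pools are named biological replicates in the labels, so p-values measure the spread between pools. In pooled tissue, fewer cells in S phase and less RNA per cell cannot be told apart.

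Before S phase, the origin recognition complex, CDC6 and CDT1 load the ring of MCM2 to MCM7 onto origins of replication, a step called licensing. CDC45 and the GINS complex then join the ring to form the active helicase, with the help of MCM10. DNA polymerase alpha and primase start each strand, and polymerases delta and epsilon extend it, held by the PCNA clamp that the RFC complex loads. Ribonucleotide reductase, thymidylate synthase and thymidine kinase supply the deoxynucleotides. Cyclin E with its kinase drives entry into S phase, and E2F transcription factors, held back by the RB family, switch on many of these genes. Cells of the presomitic mesoderm and tailbud divide fast as the body axis grows.

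Of the 37 genes, 6 fell in the mutant and 0 rose. Here a gene is called when limma's test over all probe sets gives a Benjamini-Hochberg adjusted p under 0.05. Those that fell were the helicase genes Mcm3, Mcm7, Mcm10 and Gins1, the ribonucleotide reductase gene Rrm2 and the cyclin gene Ccne1. That is 16.2% of the list, against 2.96% of all genes called lower and 2.96% called higher. At an unadjusted p under 0.05, limma gave 14 lower (37.8%) and 2 higher (5.41%), against 10.9% lower and 11.7% higher over all genes. The median log2 change of the list, mutant minus control, was -0.15, against 0.03 over all genes. Of the 37 changes, 26 were negative (70.3%, against 40.7% of all genes). In 17 genes (45.9%) all 3 mutant values lay below all 3 controls, as in 15.1% of all genes, and in 2 genes (5.41%) all lay above, as in 17.2% of all genes.

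The calls rest on all 3 controls. With mutant 1, 2 or 3 left out, 3, 1 and 9 of the 37 genes fell, and with control 1, 2 or 3 left out 0 fell each time, with 2 controls remaining. Over all genes, 448 were called lower with all arrays and 21 to 974 with 1 array left out. The median change of the list stayed between -0.18 and -0.12 in these fits. Weights for the arrays estimated by limma gave mutant 3 a weight of 0.125 against 0.77 to 4.73 for the other arrays. With these weights 16 of the 37 genes were called lower and 1 higher. Calls over all genes grew too, to 1738 lower and 1870 higher, against 448 and 449 without weights.

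Mutant 3 lay apart from the other arrays over all genes, at a root mean square distance of 0.18 log2 units from its group mean, against 0.08 to 0.11 for the other 5. Array medians of the deposited intensities ran from 307.9 to 317.5. Of 15 markers of presomitic mesoderm, 14 were measured, with 2 called higher (Tbx6, log2 change 0.63, and Hes7, 0.52), 2 called lower (Cyp26a1, -0.74, and Rspo3, -0.74) and a median change of -0.06. Their summed intensity, which bright genes dominate, was 29047 to 30860 in mutants and 25720 to 26818 in controls. Summed blood markers (5 of 7 listed were measured, 0 called) ran from 3999 to 16630 in mutants, with the lowest value in mutant 3, and from 9293 to 22479 in controls. Summed endothelial markers (6 of 6, 0 called) ran from 549 to 1280 in mutants and 671 to 1911 in controls, and neural tube markers (7 of 7, 0 called) from 1237 to 1311 in mutants and 1159 to 1279 in controls. Lateral plate and intermediate mesoderm markers (7 of 7, 1 called) summed to 4135 to 5638 in mutants and 4498 to 5209 in controls, and Lhx1 among them was called higher (log2 change 1.05). Gut endoderm markers (6 of 6, 0 called) summed to 691 to 781 in mutants and 728 to 759 in controls, and surface ectoderm markers (4 of 5, 0 called) to 718 to 892 in mutants and 803 to 946 in controls. Their part in the changes below was not tested. Xist, expressed from the inactive X chromosome of females, read 6.32 (log2) in control 3, against 11.35 to 12.57 in the remaining 5 arrays. The brighter of the Taf10 probe sets read 10.40, 10.37 and 10.18 in mutants 1, 2 and 3, against 10.77, 10.61 and 10.69 in controls 1, 2 and 3 (log2 change -0.37, SE 0.08, adjusted p = 0.04, lost when any array but mutant 3 was left out), and the other did not pass (log2 change 0.11, adjusted p = 0.53). In the array's numbering, which runs along the chromosomes, the brighter one lies between probe sets of Dna2 and E2f7, both on chromosome 10. The other lies between those of Hbb-y and Mcmbp, both on chromosome 7, the chromosome of Taf10. Which locus the brighter one reads was not settled. Which part of the transcript the Taf10 probe sets read is not known here, and neither is used here as a measure of the deletion.

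**Figure D1:**
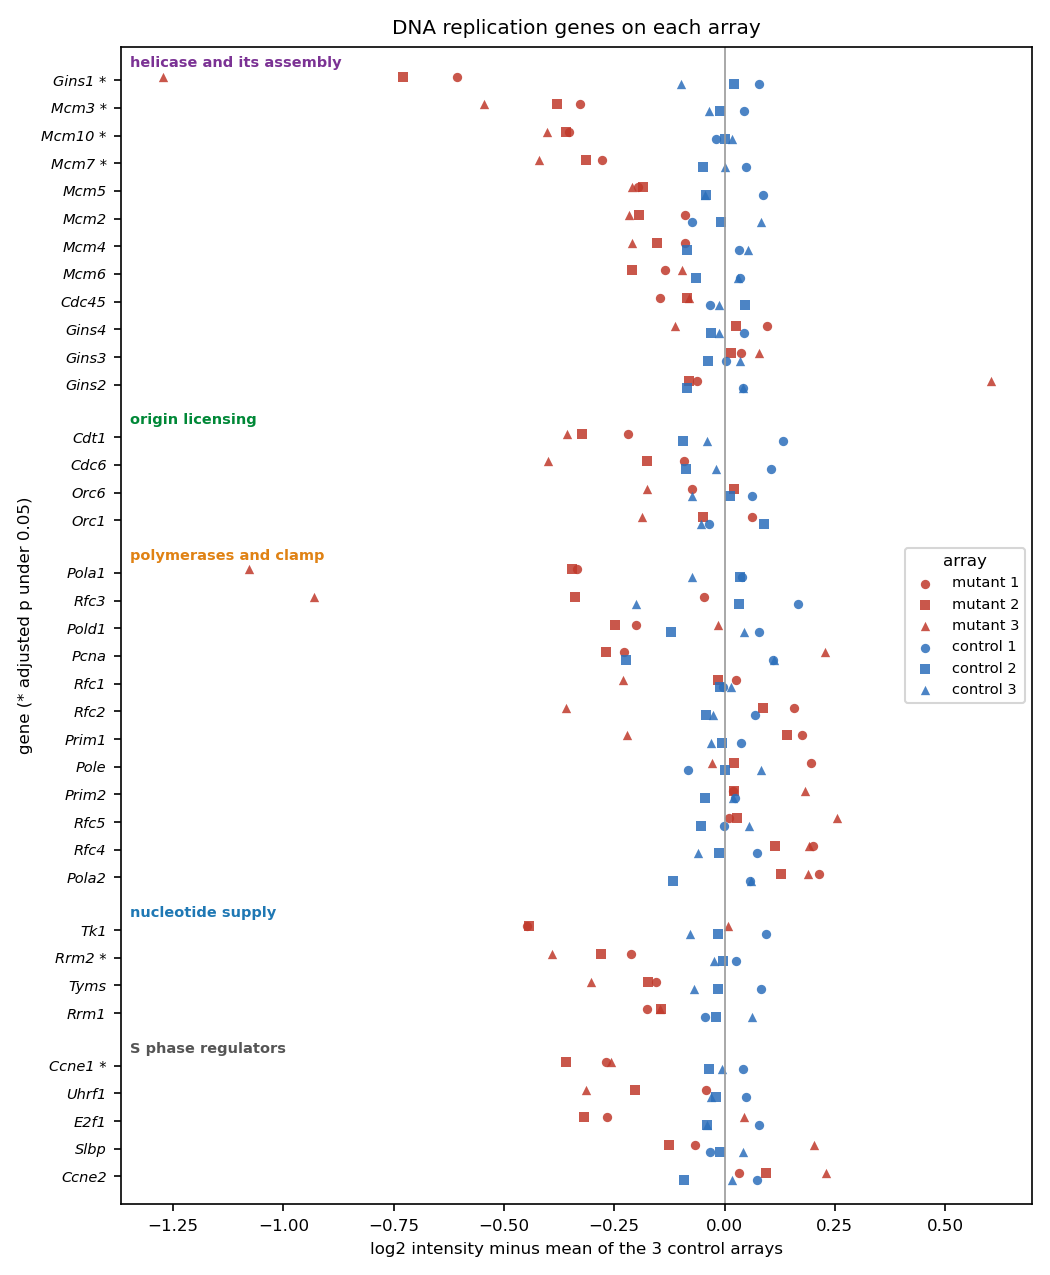
Log2 intensity of the 37 replication genes on 3 mutant (red) and 3 control (blue) arrays, given relative to the average control (x axis). Genes run down the page by role with 1 point per array, and those starred passed the test at 0.05. Mutant 3 (red triangles) lies lowest for Gins1 and Pola1 and highest for Gins2.

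Promoters of helicase genes and of Rrm2 are shown first. The binding motifs searched below were more frequent in the list's promoters than over genes on the array. E2F factors are known to switch on many genes of this kind, so the E2F share describes the list and is no result about the mutant. Promoter windows of 250 bases before to 50 bases after a transcript start were taken from RefSeq (GRCm38.p6) and matched 29 of the 37 genes (not Mcm4, Rfc2, Prim2, Pole, Gins1, Gins2, Gins4 or Ccne2). The E2F consensus was searched on both strands as TTTCCCGC, TTTCGCGC, TTTGCCGC and TTTGGCGC, and the CCAAT box, bound by the factor NF-Y, as CCAAT. An E2F match was found in 12 of the 29 genes (41.4%), against 481 of 11935 genes on the array with a window (4.03%). A CCAAT match was found in 19 of 29 (65.5%), against 42% of the same background. In the sequences below, capitals mark these matches, which read GCGGGAAA, GCGCGAAA or GCGCCAAA and ATTGG where they lie on the opposite strand. Positions count from the transcript start, with upstream bases negative.
Mcm3 upstream (chr1:20820313-20820437, - strand): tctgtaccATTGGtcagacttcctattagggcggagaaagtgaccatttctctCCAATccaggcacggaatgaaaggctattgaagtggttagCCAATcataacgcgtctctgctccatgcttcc
Mcm3 downstream (chr1:20820267-20820293, - strand): GCGGGAAAacttgggaagtTTTGGCGC
Mcm7 upstream (chr5:138172029-138172058, - strand): atttcgaaccGCGGGAAAcagggtgtccaa
Mcm7 downstream (chr5:138171856-138171867, - strand): TTTCGCGCCAAT
Mcm10 upstream (chr2:5012792-5012896, - strand): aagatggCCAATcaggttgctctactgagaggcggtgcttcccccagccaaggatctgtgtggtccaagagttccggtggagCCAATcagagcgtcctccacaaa
Rrm2 upstream (chr12:24708149-24708253, + strand): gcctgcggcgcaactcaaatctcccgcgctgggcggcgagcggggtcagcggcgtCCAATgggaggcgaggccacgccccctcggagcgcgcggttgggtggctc
Mcm5 upstream (chr8:75109349-75109467, + strand): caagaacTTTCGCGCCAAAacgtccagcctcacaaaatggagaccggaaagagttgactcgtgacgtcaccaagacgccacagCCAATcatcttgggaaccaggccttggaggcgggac
Mcm6 upstream (chr1:128359706-128359825, - strand): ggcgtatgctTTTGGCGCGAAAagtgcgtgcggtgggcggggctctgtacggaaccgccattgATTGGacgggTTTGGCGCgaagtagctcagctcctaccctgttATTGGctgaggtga
Mcm2 upstream (chr6:88898930-88898970, - strand): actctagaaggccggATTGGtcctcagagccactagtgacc

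Mcm3, Mcm7, Mcm10 and Rrm2 are shown because they fell and held a match, and Mcm2, Mcm5 and Mcm6 because they are the subunits of the same ring with a window that did not pass. Ccne1 also fell and had a window, but held no match and is not shown. The stretches were cut around matches and leave some out, such as the Mcm7 CCAAT boxes at -72 and -26. Mcm2 held 1 CCAAT box and none of the E2F words. Mcm3 held a pair of E2F matches just downstream of its start and 3 CCAAT boxes upstream. Mcm7 held E2F matches at -165 and 17, and the one at 17 shares its last base with a CCAAT box. Mcm5 and Mcm6 each held a pair of E2F matches on opposite strands that overlap by 4 bases, and Mcm6 another at -47. Mcm10 and Rrm2 held CCAAT boxes and none of the E2F words in this window, and Ccne1 held neither. Among genes with a window, the E2F words were found in 2 of 5 that fell (40%) and 10 of 24 that did not pass (41.7%). They were present in 4 of the 5 ring genes with a window, in 3 of 9 genes of the polymerases and clamp, and in the licensing genes Cdc6, Cdt1 and Orc1. A match describes these letters only, and no binding was measured.

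**Figure D2:**
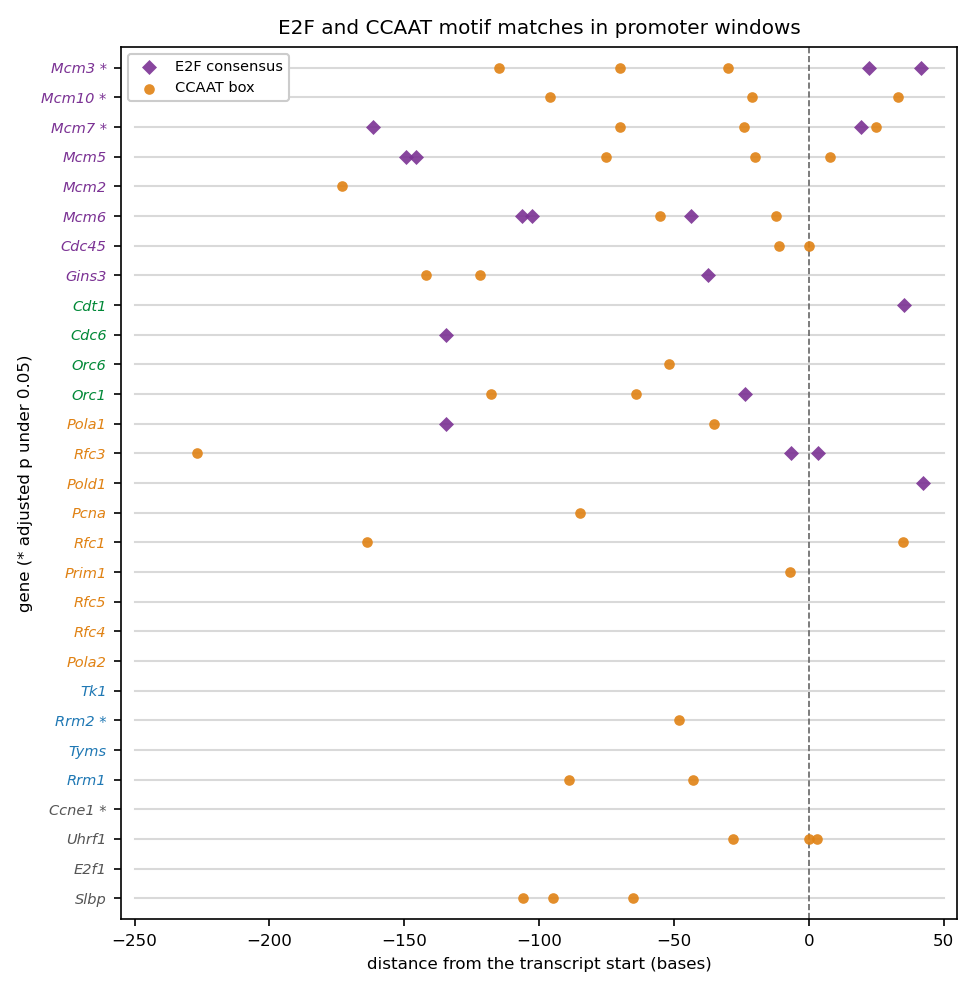
Positions of E2F consensus (purple diamonds) and CCAAT box (orange circles) matches on either strand in the first RefSeq promoter window of each of 29 replication genes, as distance in bases from the transcript start (x axis). Each row is a gene, grey lines show the window, name colours give the role as in the plot of changes, and a star marks genes that fell.

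Helicase genes held 4 of the 6 calls, in a group of 12 (33.3%, against 2.96% of all genes called lower). All 6 genes of the MCM ring had mutant values below all controls, as in 15.1% of all genes, and 2 of them, Mcm3 and Mcm7, passed. Mcm3 encodes a ring subunit and read 10.06, 10.01 and 9.84 on the log2 scale in mutants 1, 2 and 3, against 10.43, 10.38 and 10.35 in controls 1, 2 and 3. The groups did not overlap and mutant 3 was lowest. Its level fell to 74.9% of control (log2 change -0.42, SE 0.08, limma adjusted p = 0.0233). Mcm7, another ring subunit and host of a microRNA cluster in an intron, read 11.44, 11.40 and 11.29 in mutants 1, 2 and 3, against 11.76, 11.67 and 11.72 in controls 1, 2 and 3. Every mutant pool was again below every control, and the level fell to 79.2% of control (log2 change -0.34, SE 0.07, limma adjusted p = 0.0319).

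The other ring genes had smaller log2 changes, all negative. Mcm5 read 10.84, 10.85 and 10.82 in mutants 1, 2 and 3, against 11.12, 10.99 and 10.99 in controls 1, 2 and 3, a log2 change of -0.20 with a 95% interval of -0.35 to -0.05 (adjusted p = 0.122). For Mcm2 the log2 levels were 11.31, 11.21 and 11.19 in mutants, against 11.33, 11.39 and 11.48 in controls. Mutant 1 and control 1 lay close together there, and the change was -0.17 (-0.33 to -0.00, adjusted p = 0.213). Mcm4 read 11.14, 11.08 and 11.02 in mutants, against 11.26, 11.15 and 11.29 in controls (log2 change -0.15, 95% interval -0.31 to 0.01, adjusted p = 0.246). Mcm6 read 10.89, 10.81 and 10.93 in mutants, against 11.06, 10.96 and 11.06 in controls (log2 change -0.15, 95% interval -0.30 to 0.01, adjusted p = 0.235). These 4 genes did not pass, and their intervals overlap those of Mcm3 and Mcm7. With a permutation test of the 6 values of 1 gene, 3 against 3 arrays cannot give an exact two-sided p under 0.1, and all 6 ring genes gave that value.

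Mcm10, which helps to turn the loaded ring into a moving helicase, had the tightest groups among the genes that fell. It read 9.79, 9.78 and 9.74 in mutants 1, 2 and 3, against 10.12, 10.14 and 10.16 in controls 1, 2 and 3. Means were 9.77 ± 0.03 in mutants and 10.14 ± 0.02 in controls (SD, n = 3 each), and the level fell to 77.3% of control (log2 change -0.37, SE 0.06, limma adjusted p = 0.0142).

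Of the 4 subunits of the GINS complex, 1 passed (25%, against 2.96% of all genes called lower). Gins1, a core subunit, read 9.39, 9.27 and 8.72 in mutants 1, 2 and 3, against 10.07, 10.02 and 9.90 in controls 1, 2 and 3. Mutant 3 lay far below the other mutants, which themselves lay below all controls. The fall, to 54.7% of control, was the largest of the 37 (log2 change -0.87, SE 0.16, limma adjusted p = 0.0242), and without mutant 3 the log2 change was -0.67. Gins2 read 9.59 and 9.57 in mutants 1 and 2 but 10.25 in mutant 3, against 9.69, 9.56 and 9.69 in controls 1, 2 and 3. Its log2 change was 0.15 (95% interval -0.25 to 0.55) with all arrays and -0.07 without mutant 3. Gins3 and Gins4 gave changes of 0.04 (-0.10 to 0.18) and 0.00 (-0.17 to 0.17), with groups that overlapped. The difference between Gins1 and the other subunits was not tested. Cdc45, the third part of the active helicase, read 9.56, 9.62 and 9.62 in mutants and 9.67, 9.75 and 9.69 in controls, a change of -0.10 (-0.25 to 0.04) that did not pass although the groups did not overlap.

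**Figure D3:**
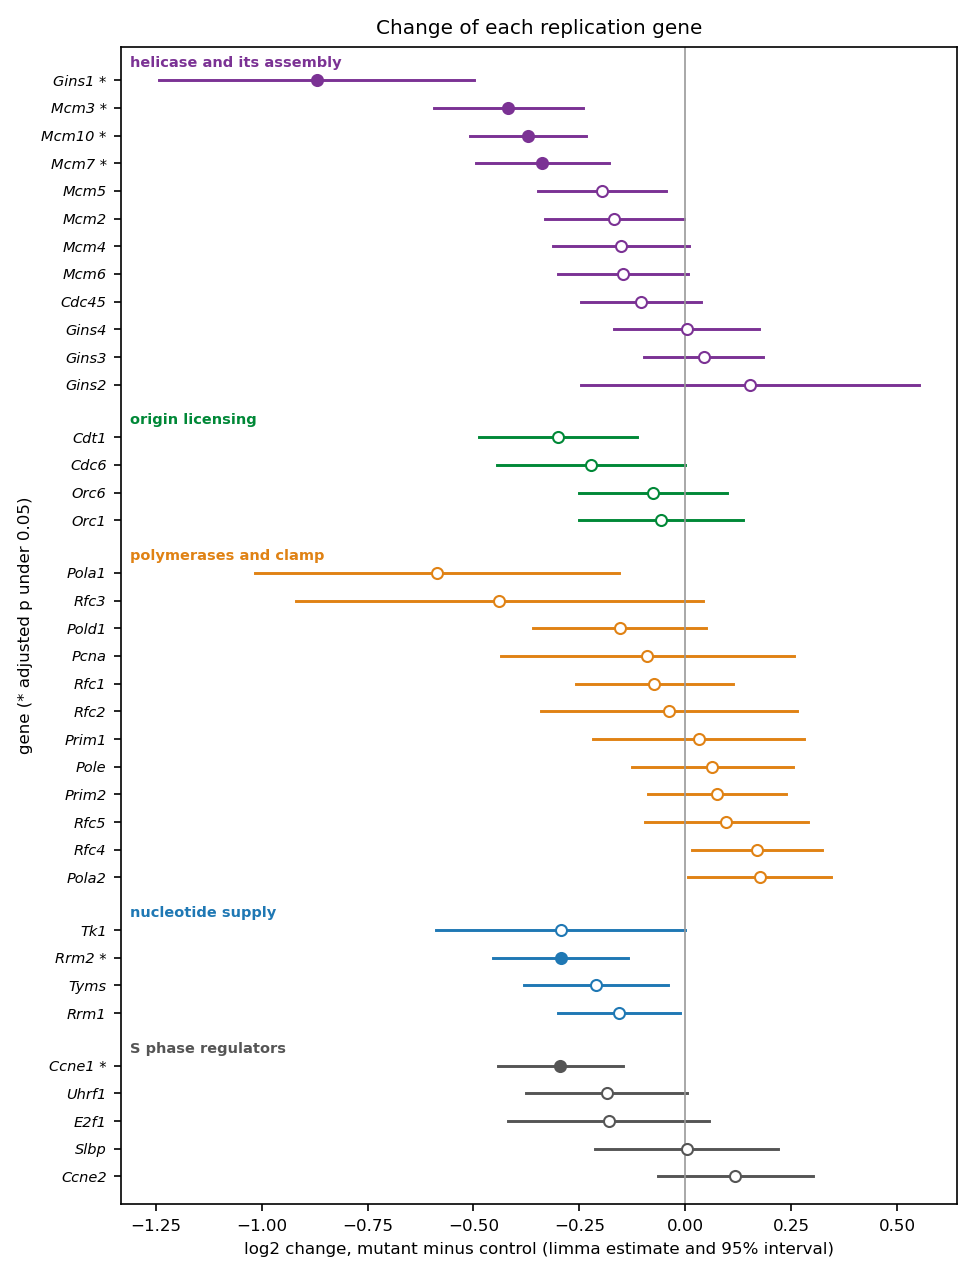
Log2 change of each of the 37 genes, mutant minus control (x axis), with limma's 95% interval as a line, grouped and coloured by role. Filled points and a star mark an adjusted p under 0.05; the 6 filled points lie between -0.87 (Gins1) and -0.29 (Rrm2 and Ccne1).

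All 4 origin licensing genes had negative changes, as did 40.7% of all genes. Of the 4, 0 passed, against 2.96% of all genes called lower. Cdt1, the loader of the ring that is destroyed once S phase begins, came nearest. It read 9.36, 9.25 and 9.22 in mutants 1, 2 and 3, against 9.71, 9.48 and 9.54 in controls 1, 2 and 3, with no overlap (log2 change -0.30, SE 0.08, limma adjusted p = 0.073). Cdc6, the ATPase that works with the origin recognition complex, read 9.04, 8.95 and 8.73 in mutants and 9.24, 9.04 and 9.11 in controls. Its highest mutant and lowest control both round to 9.04, and its change was -0.22 (-0.44 to -0.00). Orc1 and Orc6, subunits of the origin recognition complex, gave changes of -0.06 (-0.25 to 0.14) and -0.08 (-0.25 to 0.10), with overlapping groups.

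The 12 genes of the polymerases and clamp gave 0 calls and no common direction, with 6 negative and 6 positive changes and a median of -0.003. Over all genes 2.96% were called lower and 2.96% higher, so 0 of 12 lies near the share over all genes. The accessory polymerase subunits Pole2 and Pold2, kept in a further list below, fell. Pola1, the catalytic subunit of polymerase alpha, read 9.92, 9.91 and 9.18 in mutants 1, 2 and 3, against 10.30, 10.29 and 10.18 in controls 1, 2 and 3. All mutants were below all controls and mutant 3 was lower still (log2 change -0.59, SE 0.19, limma adjusted p = 0.11). Without mutant 3 the change was smaller, at -0.34, and passed (adjusted p = 0.0102). Pola2, the regulatory subunit of the same polymerase, lay above all controls instead, at 10.13, 10.04 and 10.11 in mutants and 9.98, 9.80 and 9.98 in controls (change 0.18, 95% interval 0.01 to 0.35, adjusted p = 0.203). The primase genes Prim1 and Prim2 gave 0.03 (-0.22 to 0.28) and 0.07 (-0.09 to 0.24). Pold1 and Pole, the catalytic subunits of polymerases delta and epsilon, gave -0.15 (-0.36 to 0.05) and 0.06 (-0.13 to 0.25).

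Clamp loader genes had changes of both signs and 0 calls among 5 genes, against 2.96% of all genes called lower and 2.96% called higher. Rfc4 read 11.95, 11.86 and 11.94 in mutants 1, 2 and 3, against 11.82, 11.74 and 11.69 in controls 1, 2 and 3, all mutants above all controls, and did not pass (change 0.17, 95% interval 0.02 to 0.32, adjusted p = 0.18). Rfc3 read 10.05, 9.76 and 9.17 in mutants and 10.27, 10.13 and 9.90 in controls. Mutants 2 and 3 lay below every control there and mutant 1 did not, and the interval, -0.92 to 0.04, was the widest of the 37. Rfc1, Rfc2 and Rfc5 gave changes of -0.07, -0.04 and 0.10, with overlapping groups. For Rfc1 and Rfc2 the sign turned without mutant 3, to 0.005 and 0.12.

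Pcna, which encodes the sliding clamp, was read by a pair of probe sets. The brighter one gave 12.63, 12.59 and 13.09 in mutants 1, 2 and 3, against 12.97, 12.64 and 12.97 in controls 1, 2 and 3, and the other gave 12.52, 12.59 and 12.76 in mutants, against 12.85, 12.60 and 12.83 in controls. Neither passed (changes -0.09 and -0.14), and in the brighter one mutant 3 was the highest of all 6 arrays. In the numbering of the array, which runs along the chromosomes, 0 of the 20 nearest probe sets of the brighter one lay on the chromosome of Pcna, against 19 of 20 for the other. Which locus the brighter one reads was not settled, and the same was found for the brighter probe set of Tk1 and for the dimmer probe set of Slbp. For the remaining 37 of the 40 probe sets, 17 to 20 of the 20 neighbours lay on the chromosome of the named gene.

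All 4 nucleotide supply genes had negative changes, as did 40.7% of all genes, and Rrm2 passed (25%, against 2.96% of all genes called lower). Rrm2 encodes the small subunit of ribonucleotide reductase, whose level follows S phase. It read 11.75, 11.68 and 11.57 in mutants 1, 2 and 3, against 11.99, 11.96 and 11.94 in controls 1, 2 and 3, without overlap. The level fell to 81.6% of control (log2 change -0.29, SE 0.07, limma adjusted p = 0.0491). The call was lost when limma was run over all 18064 deposited probe sets (adjusted p = 0.0510). Rrm1, the large subunit, read 11.82, 11.85 and 11.85 in mutants, against 11.95, 11.98 and 12.06 in controls (log2 change -0.16, 95% interval -0.30 to -0.01, adjusted p = 0.187). Tyms, thymidylate synthase, read 10.91, 10.89 and 10.76 in mutants, against 11.15, 11.05 and 11.00 in controls (log2 change -0.21, 95% interval -0.38 to -0.04, adjusted p = 0.137). Neither passed, and in both all mutants lay below all controls.

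The reading of Tk1, the S phase thymidine kinase, depended on the probe set and on 1 array. The brighter probe set, whose locus was not settled, read 9.34, 9.34 and 9.79 in mutants 1, 2 and 3, against 9.88, 9.77 and 9.71 in controls 1, 2 and 3. Mutants 1 and 2 lay well below the controls and mutant 3 among them, and the change of -0.29 did not pass (adjusted p = 0.217). The probe set numbered among genes of the chromosome of Tk1 read 8.90, 8.88 and 9.32 in mutants, against 9.57, 9.46 and 9.35 in controls. There all mutants lay below all controls, and the change was -0.42 (SE 0.12, limma adjusted p = 0.0917). Without mutant 3, the brighter probe set changed by -0.45 and passed (adjusted p = 0.00563).

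Of 5 S phase regulators, Ccne1 passed (20%, against 2.96% of all genes called lower). Ccne1 encodes cyclin E1 and read 10.58, 10.49 and 10.59 in mutants 1, 2 and 3, against 10.89, 10.81 and 10.84 in controls 1, 2 and 3. The groups did not overlap, and the level fell to 81.5% of control (log2 change -0.29, SE 0.06, limma adjusted p = 0.0386). The call was lost after quantile normalization (adjusted p = 0.0540) and with each array's trend with level taken out (0.0576). Its relative Ccne2, cyclin E2, had a log2 change of 0.12 (-0.06 to 0.30), with mutant 3 highest. E2f1, the E2F activator that is itself an E2F target, read 9.63, 9.58 and 9.94 in mutants and 9.97, 9.86 and 9.86 in controls. Mutants 1 and 2 lay below all controls and mutant 3 within them (change -0.18, adjusted p = 0.338), and without mutant 3 the change was -0.29 (adjusted p = 0.0187). Uhrf1, which brings the maintenance methyltransferase to newly copied DNA, read 10.92, 10.76 and 10.65 in mutants, against 11.01, 10.95 and 10.94 in controls. The groups did not overlap, and the change of -0.19 (-0.38 to 0.00) did not pass (adjusted p = 0.229). Slbp, which binds the stem-loop of replication-dependent histone mRNAs, gave 0.00 (-0.21 to 0.22) by its brighter and -0.03 (-0.24 to 0.19) by its dimmer probe set, with overlapping groups.

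Mutant pools did not place these genes alike. Mutant 3 was the lowest mutant for 21 of the 37 genes (56.8%) and the highest for 13 (35.1%), against 33.1% and 55.5% of all genes. Its gap to the mean of the other mutants was widest downward for Rfc3 and Pola1 (-0.74 each), followed by Gins1 (-0.61), and widest upward for Gins2 (0.67), followed by Pcna (0.48) and Tk1 (0.45). The values for Pcna and Tk1 come from their brighter probe sets, whose locus was not settled. In mutants 1, 2 and 3 the other Pcna probe set read 12.52, 12.59 and 12.76, a narrower gap. The other Tk1 probe set read 8.90, 8.88 and 9.32. The median of the 37 genes nonetheless lay below the controls in each mutant, at -0.09 in mutant 1, -0.17 in mutant 2 and -0.19 in mutant 3, against 0.04, -0.02 and -0.01 in controls 1, 2 and 3. Of the 37 genes, 25, 26 and 26 were below their control mean in mutants 1, 2 and 3. Over all genes, the shares below the control mean were 47.2%, 45.1% and 37.9%.

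All 37 genes were well expressed, the dimmest at percentile 61.9 of level over all genes. Among the 8922 genes at or above the 40th percentile of level, the median change was -0.01, and 5.12% were called lower and 4.88% higher, with the same 6 replication genes lower. With each array's trend with level taken out, the list's median was -0.10, against 0.004 over all genes, and 5 of the 6 genes remained called.

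**Figure D4:**
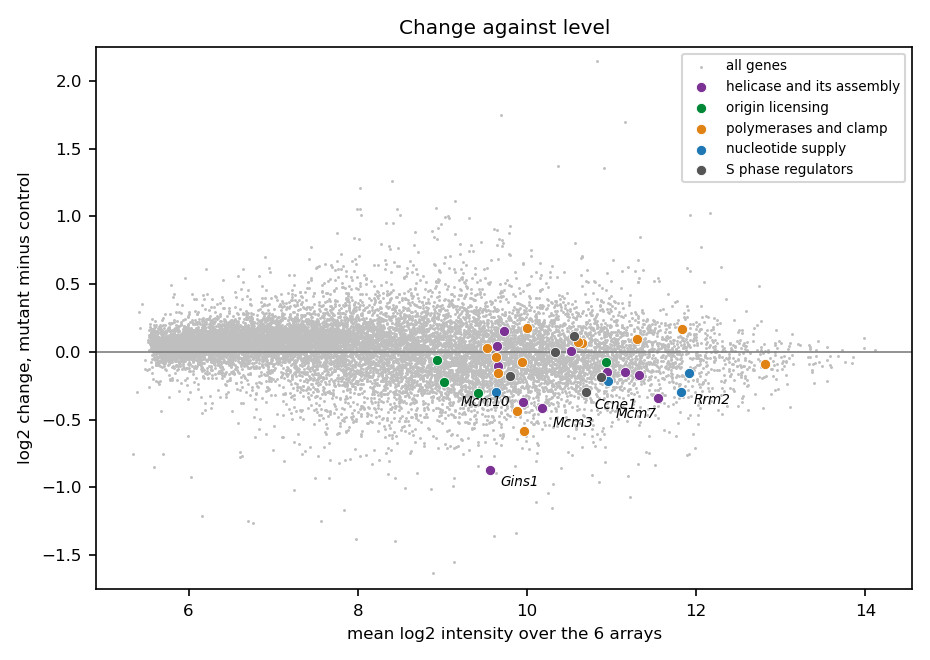
Log2 change, mutant minus control (y axis), against mean log2 intensity over the 6 arrays (x axis), with all 15153 genes in grey and the 37 replication genes coloured by role. The 6 named genes passed the test, and replication genes lie in the brighter part of the range, from a mean level of 8.94 to 12.82.

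A further list of replication genes was drawn up apart from the 37, of which 64 of 69 were measured. In it 8 fell (12.5%) and 0 rose, against 2.96% called lower and 2.96% called higher over all genes. At an unadjusted p under 0.05 limma gave 21 lower (32.8%) and 4 higher (6.25%), against the same 10.9% and 11.7% over all genes. The median change was -0.15 and 52 changes were negative (81.25%, against 40.7% of all genes). Timeless, of the fork protection complex, read 7.97, 8.07 and 8.06 in mutants 1, 2 and 3, against 8.53, 8.55 and 8.52 in controls 1, 2 and 3 (log2 change -0.50, SE 0.06, limma adjusted p = 0.00758). Clspn, encoding claspin, the mediator of the replication checkpoint, read 8.31, 8.28 and 7.79 in mutants 1, 2 and 3, against 8.84, 8.73 and 8.83 in controls 1, 2 and 3 (log2 change -0.67, SE 0.14, adjusted p = 0.0317). In both genes the groups did not overlap, and for Clspn mutant 3 was much the lowest.

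Another 6 genes of that list fell. Pole2 and Pold2, accessory subunits of polymerases epsilon and delta, changed by -0.40 (SE 0.06) and -0.43 (SE 0.10), while their catalytic partners Pole and Pold1 did not pass. Gmnn, encoding geminin, which blocks CDT1, changed by -0.49 (SE 0.10). Rnaseh2b, of the enzyme that removes ribonucleotides from DNA, changed by -0.69 (SE 0.09), Dscc1, of an alternative clamp loader, by -0.56 (SE 0.13), and the nuclease Dna2 by -0.34 (SE 0.08). Limma's adjusted p ran from 0.00878 for Rnaseh2b to 0.0494 for Dna2. Some of these calls were also lost in fits that kept all arrays. Dna2 was lost over all 18064 probe sets (adjusted p = 0.0526), with a trended prior (0.0555) and with the replicate number as a block (0.0576). Dscc1 was lost after quantile normalization (0.0617) and with each array's trend taken out (0.0612). Pold2 was lost in the same 2 fits (0.0821 and 0.0814), over all probe sets (0.0506) and with the block (0.0515). Gmnn and Dscc1, at percentiles 31.5 and 39.9 of level over all genes, lay below the filter at the 40th percentile and were not in that fit. Highest in the list by p among genes with a positive change were Rbl1, an RB family repressor of E2F targets (0.26, adjusted p = 0.0543), and Samhd1, which degrades deoxynucleotides (0.23, adjusted p = 0.0679). Both were called higher among genes above the filter on level, after quantile normalization, and with each array's trend taken out. Without control 1 or control 2 0 genes of this list fell, and without mutant 3 there were 13 lower, 4 higher and a median of -0.07.

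The G2 and M phase genes served as a comparison within the cell cycle. Of 28 measured, Nusap1, a spindle protein, rose (log2 change 0.32, SE 0.07, limma adjusted p = 0.039) and 0 fell. That 1 call is 3.57% of the list, close to the 2.96% of all genes called higher. The call was lost under median centring (adjusted p = 0.0546) and with the replicate number as a block (0.0576). It was also lost when any array but mutant 3 was left out (0.0745 to 0.162). At an unadjusted p under 0.05 limma gave 1 lower (3.57%) and 2 higher (7.14%), against 10.9% and 11.7% over all genes. The median was -0.05, with 17 negative changes (60.7%, against 40.7% of all genes). Mutants lay below all controls in 4 genes and above in 4 (14.3% each, against 15.1% and 17.2% of all genes). E2F words were found in 1 of 22 of these genes with a window (4.55%) and in 18 of 54 of the further replication genes (33.3%). CCAAT was found in 18 of 22 (81.8%) and in 26 of 54 (48.1%). The difference between the lists was not tested.

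**Figure D5:**
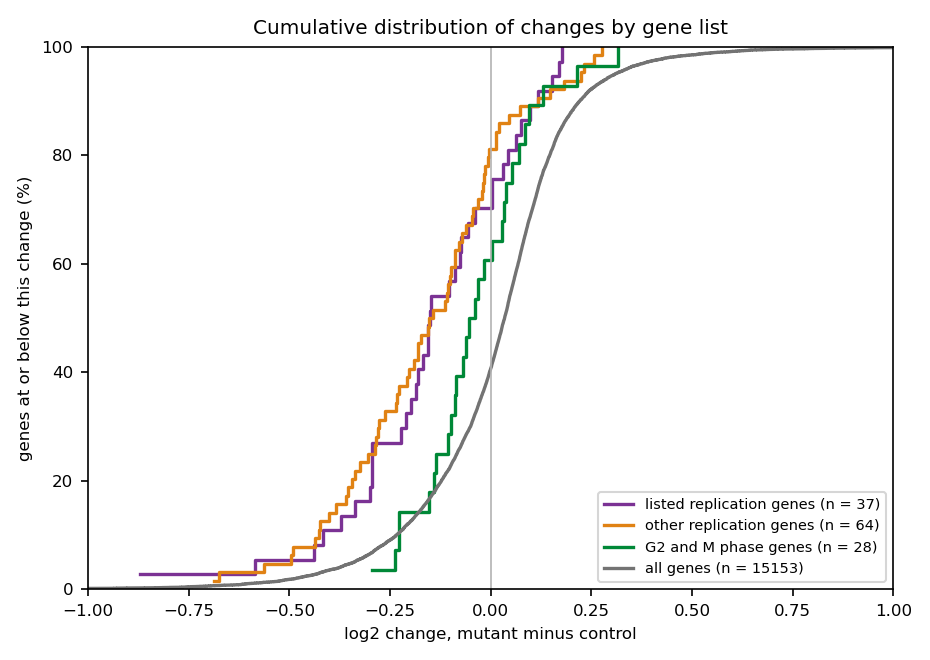
Cumulative share of genes (y axis, percent) at or below a given log2 change, mutant minus control (x axis, shown from -1 to 1), for the 37 listed replication genes, 64 further replication genes, 28 G2 and M phase genes and all 15153 genes. Both replication curves lie left of the curve for all genes, with medians of -0.15 each against 0.03.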

How the data were processed

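Total RNA (150 ng) was labelled with a whole-transcript kit, per the labels' protocols. The deposited intensity of each probe set was made with RMA (background correction, normalization between arrays, summary over probes), per the submitters' processing notes. Version and filters: not given in the sources used here. Deposited numbers are linear, and log2 was taken with no further normalization or filter. Of 18064 deposited probe sets, 16311 had 1 gene symbol, 734 several and 1019 none here. Limma 3.58.1 in R 4.3.3 compared mutant with control (lmFit, eBayes, no covariate), adjusted over the 16311. The brightest probe set stood for a gene, leaving 15153 genes. Python 3.11.15 searched promoters. The members, lists, tests and alternatives were chosen with earlier results of these data known. By rule, all members are accounted for, those that passed or whose groups do not overlap get per-array values, and called genes of the comparison lists are named; Rbl1, Samhd1 and the remaining members were named with values seen. In simulated data on 16311 probe sets, a log2 change of 0.5 was recovered in 58% of 50 probe sets, 0.25 in 4% and 1 in 94%, and 10 unchanged probe sets were called. The data held more calls (448 genes lower and 449 higher), and the adjusted p depends on their number. The simulated rates may therefore not hold for the fit above. The number of arrays limits the precision.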

Additional observations from a re-analysis of the deposited data

How the results depend on the processing

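The log2 change of each of the 6 genes that fell kept its sign under all 17 alternatives. Calls held under 14 of them for Gins1, 13 for Mcm3 and Mcm10, 12 for Mcm7, 11 for Rrm2 and 10 for Ccne1. With 1 array left out, the replication genes that fell numbered 0 to 9, the further replication genes 0 to 13 lower and 0 to 4 higher, and all genes 21 to 974 lower and 20 to 971 higher. Array weights gave 16 lower and 1 higher of the 37, 18 lower and 6 higher of the further list, and 1738 lower and 1870 higher of all genes. Without mutant 3 and control 3 together, 9 of the 37 fell, 13 of the further list fell and 4 rose, and 1003 of all genes fell and 1122 rose. With each array's trend taken out, Dscc1 (0.0612) and Pold2 (0.0814) were lost. Quantile normalization, the filter on level and removal of each array's trend each called 2 further genes higher. The replicate number as a block gave 7 lower (Cdt1 added) and 0 higher of the 37, and 7 lower of the further list, where Rpa2 was added and Dna2 (adjusted p = 0.0576) and Pold2 (0.0515) were lost; Nusap1 was lost too (0.0576). Deviations of same-numbered pools correlated at 0.13, 0.08 and 0.32, and 2 of 6 arrays correlated best with their own number, so the numbers were not taken as pairs.

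Sign changes were confined, among the named genes and alternatives run, to 8 genes that did not pass. Rfc2 moved to 0.00092 after quantile normalization, 0.11 with array weights and 0.11 without mutant 3 and control 3 together, where Rfc1 gave 0.012, Gins2 -0.050 and Slbp -0.076. Array weights gave -0.041 for Gins2 and -0.11 for Slbp, median centring -0.0020 for Gins4 and -0.0022 for Slbp, and the mean of probe sets -0.012 for Slbp. With 1 array left out, Rfc1 ran from -0.12 to 0.0050, Rfc2 from -0.14 to 0.12, Prim1 from -0.040 to 0.16, Pole from -0.0032 to 0.11, Gins2 from -0.072 to 0.27, Gins4 from -0.044 to 0.061, Orc1 from -0.12 to 0.0076 and Slbp from -0.097 to 0.068. The cause of these shifts was not tested.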
